A study of Mus musculus with 12 samples.

Results

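Fto and 7 genes that lie around it on mouse chromosome 8 were followed in 3T3-L1 cells in which Fto had been knocked down. The genes were chosen by symbol and position and none by its measured value, though with earlier results of these data known. They are Chd9, Rbl2, Aktip and Rpgrip1l on one side of Fto and Irx3, Irx5 and Irx6 on the other, 8 of the 55487 genes in the table. Each symbol was found once. Of the 8 genes, 7 reached 1 TPM in 2 or more libraries and were tested, and Irx6 was listed at 0 in all 12 libraries.

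3T3-L1 is a mouse fibroblast line that turns into adipocyte-like cells after hormonal induction. All cells carried a lentiviral hairpin and were selected with puromycin, which was a scrambled control (shScram) or targeted Fto (shFTO). Collection was at 3 stages, namely preadipocytes (Pre), mitotic clonal expansion (MCE) and differentiation (Diff). The 6 resulting groups had 2 RNA-seq libraries each, and nothing in the labels says that they came from separate cultures, so the p-values measure the spread between these libraries, which may be technical. Neither the hairpin used for the sequenced cells nor whether a line was 1 clone is stated, so a difference between the lines and the knockdown cannot be told apart. TPM is a share of all transcripts corrected for transcript length. It keeps no sequencing depth, and in a bulk sample fewer cells that express a gene and less RNA per cell cannot be told apart. Differences are given as log2(TPM + 1), a scale that shrinks the change of genes at low TPM, and a gene was called where the adjusted p of limma was under 0.05.

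The labels of 1 library disagree. Replicate 1 of shScram at the differentiation stage has a treatment entry that names the knockdown, and it was grouped by its title. Across genes, the libraries of a group correlated at 0.990 to 0.993 except in shScram preadipocytes, where the value was 0.939. In that group, replicate 1 minus replicate 2 correlated with the GC content of the longest transcript (Spearman's rho -0.69 over 15928 genes, which are not independent), whereas rho lay between -0.20 and 0.36 in the other groups. The difference between shFTO and shScram also followed GC content, with a rho of 0.58 (Pre), 0.11 (MCE) and 0.19 (Diff). The averages of Rpgrip1l, Irx3, Irx5 and Aktip are therefore given with and without the preadipocyte libraries and with a correction for GC content. Both alternatives were chosen after seeing the data. Most other values, among them those of most named partner genes and wider neighbours, are given without these alternatives. The summed level of 7 fibroblast markers was 4848 to 11243 TPM, so the markers of the labelled cell type were present in every library. The summed level of 7 adipocyte markers at the differentiation stage was 1511 to 1519 TPM with shScram and 412 to 450 TPM with shFTO, and the part of adipocyte content in the results below was not tested. Macrophage, endothelial and epithelial markers summed to no more than 1.43, 0.651 and 0.164 TPM.

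FTO is a demethylase that removes N6-methyladenosine from RNA. Its gene is best known for intronic variants linked to body weight in people, and enhancers inside those introns contact the neighbouring genes Irx3 and Irx5, which code for homeobox transcription factors that act in adipocyte precursors. Rpgrip1l codes for a protein of the transition zone, the gate at the base of the primary cilium, and its start site lies back to back with that of Fto.

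On GRCm38, with the GENCODE annotation, Fto (ENSMUSG00000055932) spans chr8:91313525-91668439 on the plus strand. Rpgrip1l spans chr8:91217030-91313262 on the minus strand, so that 262 bases separate the 2 genes. Further out on that side lie Aktip (chr8:91111784-91199976, minus strand), Rbl2 (chr8:91070057-91123844, plus strand) and Chd9 (chr8:90828352-91054516, plus strand). Beyond the end of Fto lie Irx3 (chr8:91798525-91802067, minus strand), Irx5 (chr8:92357625-92376286, plus strand) and Irx6 (chr8:92674288-92680956, plus strand). Measured from the start site of Fto, the start sites of Irx3 and Irx5 are 489 and 1044 kb away.

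The stretch between Fto and Rpgrip1l is shown because a single stretch of DNA serves as the upstream region of both genes, one of which was knocked down at the RNA level. The 250 bases before the RefSeq start of Fto, read on the plus strand of GRCm38.p6, are given first, followed by the 250 bases before the start of Rbl2. Capitals mark ACTACATTTCCCAG, read on either strand, the longest run of bases shared by the upstream windows of members that do not overlap on the genome (14 bases). It was found by searching these windows themselves.
Fto, chr8:91313275-91313524: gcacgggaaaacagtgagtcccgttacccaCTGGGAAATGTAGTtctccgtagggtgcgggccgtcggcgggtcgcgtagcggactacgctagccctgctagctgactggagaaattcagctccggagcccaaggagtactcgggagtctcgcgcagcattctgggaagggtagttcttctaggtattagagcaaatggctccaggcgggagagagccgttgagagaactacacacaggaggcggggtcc
Rbl2, chr8:91069807-91070056: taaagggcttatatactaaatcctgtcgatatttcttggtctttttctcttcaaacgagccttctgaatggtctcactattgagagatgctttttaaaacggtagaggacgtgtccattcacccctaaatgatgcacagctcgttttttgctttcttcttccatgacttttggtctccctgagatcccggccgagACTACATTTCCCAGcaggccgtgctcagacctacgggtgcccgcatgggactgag
The run between Fto and Rpgrip1l lies at chr8:91313305-91313318. It is one and the same stretch in the upstream windows of both genes, on the minus strand for Fto and on the plus strand of the Rpgrip1l window. That before Rbl2 lies at chr8:91070002-91070015. Of 32851 RefSeq windows of 300 bases, 93 (0.283%) held it on either strand. RefSeq windows were found for 6 of the 8 genes, not for Irx5 and Irx6. The windows of Aktip, Chd9 and Irx3 did not hold it, and GGGCGG, which 35.7% of all windows held, was present in those of Aktip, Rbl2 and Chd9. These matches describe the letters in a window and not the binding of a factor.

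Fto itself was lower in every shFTO library than in every shScram library. The shScram libraries stood at 52.7 and 58.3 TPM (Pre), 59.1 and 55.7 TPM (MCE) and 73.5 and 70.8 TPM (Diff). The shFTO libraries stood at 5.51 and 5.55, at 6.32 and 6.03 and at 7.47 and 7.05 TPM. Relative to shScram, 9.96%, 10.8% and 10.1% of the mean level was left, and the average difference was -3.09 (SE 0.066, adjusted p = 2.2e-08 with limma). The library with the conflicting entry held 73.5 TPM, close to the other shScram library of its stage. Ordered by level, the shFTO groups did not overlap from preadipocytes through MCE to the differentiation stage. Among shScram groups the preadipocyte and MCE values overlapped and both lay below the differentiation stage. Groups of 2 libraries separate easily, and the share of all genes that do so between stages was not counted. The difference between the differentiation and MCE stages in shScram cells was 0.33 (adjusted p = 0.067), and 0.10 with the GC correction (adjusted p = 0.41). From preadipocytes to MCE, Fto was called higher only with that correction. It stood at 0.29 in shScram (adjusted p = 0.027 with limma) and 0.31 in shFTO cells (adjusted p = 0.022). Of all genes, 44.0% and 38.2% were called there.

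**Figure D1:**
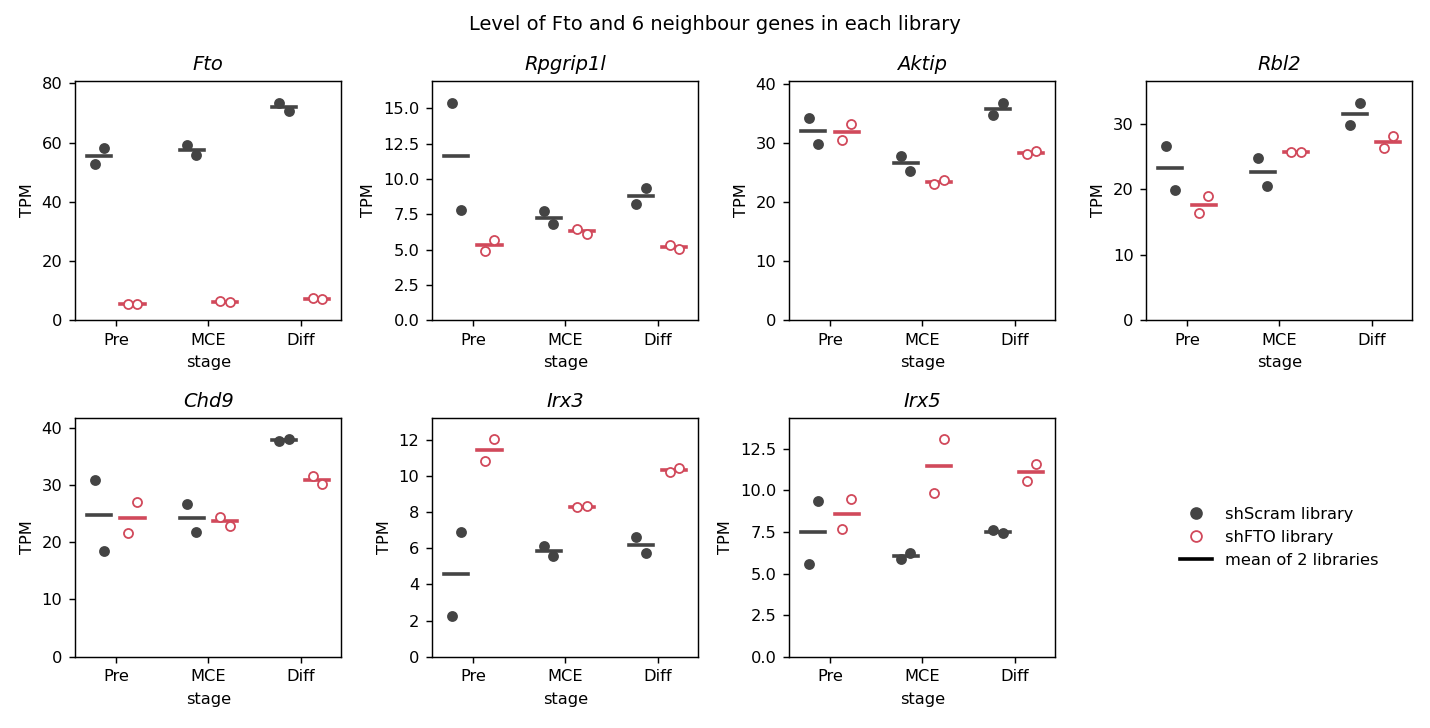
TPM of Fto and the 6 neighbours above 0 in each library, by stage, with filled points for shScram, open points for shFTO and bars for the mean of 2 libraries. Fto falls to between 5.51 and 7.47 TPM in shFTO cells, whereas Rpgrip1l lies lower and Irx3 higher in shFTO than in shScram libraries, and replicate 1 of shScram preadipocytes holds the highest Rpgrip1l (15.4 TPM) and the lowest Irx3 value (2.26 TPM).

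Averaged over the stages, 3 of the 6 neighbours that could be tested changed with the knockdown. Rpgrip1l fell and Irx3 and Irx5 rose, with the direction of Irx5 turning under the GC correction, whereas Aktip, Rbl2 and Chd9 were not called. Among all 15968 genes tested, 42.8% were called in this comparison, 18.3% lower and 24.5% higher, so 3 of the 6 neighbours tested is close to the background. By stage, 2 of the 6 neighbours tested were called in preadipocytes (Rpgrip1l lower, Irx3 higher) against a background of 28.2%, and 1 at the MCE stage (Irx5 higher) against 17.8%. No neighbour was called at the differentiation stage against 21.2% of all genes by limma, where 2 of 6 tested had an unadjusted p under 0.05. Fitted on the MCE and differentiation libraries alone, 4 neighbours were called in the average (Rpgrip1l, Aktip, Irx3 and Irx5), when 54.5% of all genes were. With the GC correction 3 were called (Rpgrip1l, Aktip and Irx3), when 49.7% of all genes were.

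**Figure D2:**
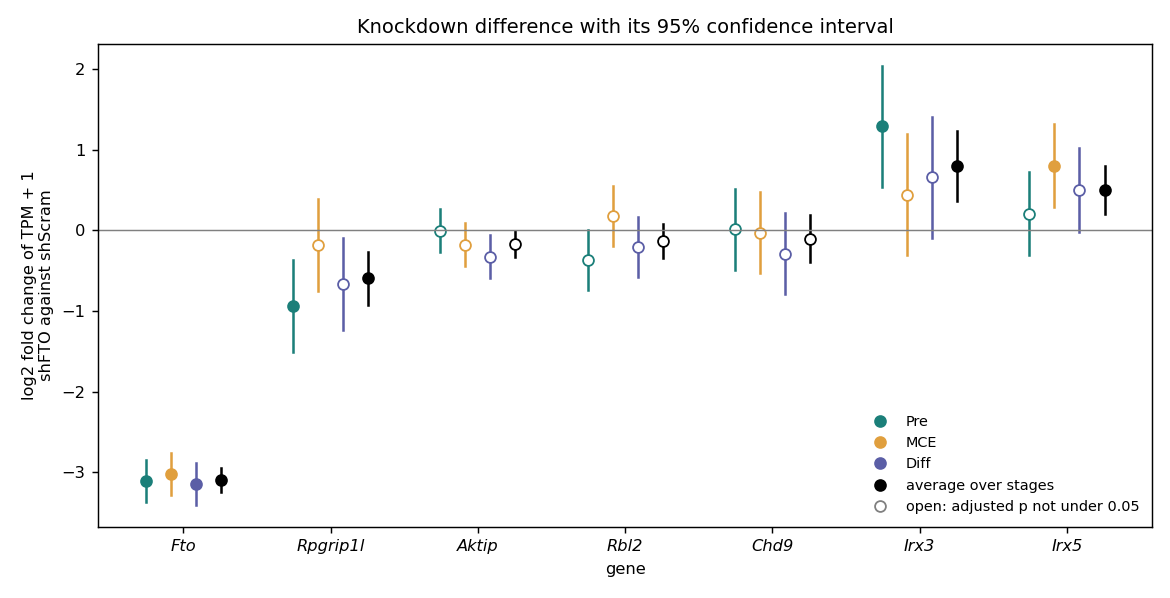
Log2 fold change of TPM + 1 in shFTO against shScram cells for 7 genes, at each stage and averaged over the stages, with 95% confidence intervals from limma. Filled points had an adjusted p under 0.05. The Fto values lie near -3, and the averages of Rpgrip1l (-0.59), Irx3 (0.80) and Irx5 (0.51, and -0.08 with the GC correction) are the filled ones among its neighbours.

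Rpgrip1l, which shares its upstream region with Fto, held 15.4 and 7.83 TPM (Pre), 7.70 and 6.83 TPM (MCE) and 8.26 and 9.35 TPM (Diff) with shScram. With shFTO it held 4.93 and 5.67, 6.46 and 6.10, and 5.34 and 5.03 TPM. All 6 shFTO libraries lay below all 6 shScram libraries, as they did for 2.96% of all genes. The shFTO mean was 45.6%, 86.5% and 58.9% of the shScram mean stage by stage, a smaller reduction than that of Fto at each of them. The average difference was -0.59 (SE 0.15, adjusted p = 0.011 with limma). At single stages it was -0.94 in preadipocytes (adjusted p = 0.028), -0.18 at the MCE stage (adjusted p = 0.70) and -0.66 at the differentiation stage (adjusted p = 0.10). Replicate 1 of shScram preadipocytes was far above the other shScram libraries. Without it the preadipocyte difference was -0.49 (adjusted p = 0.045) and the average -0.44 (adjusted p = 0.0011). With the MCE and differentiation libraries alone the average was -0.42 (adjusted p = 0.0040), and with the GC correction -0.44 (adjusted p = 0.0025). The preadipocyte call was lost when either shFTO preadipocyte library was left out (adjusted p = 0.14 without replicate 1 and 0.083 without replicate 2), a fit that takes the lone library to vary like the other groups.

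Irx3, the Iroquois gene nearest to Fto, moved the other way. Its shScram values were 2.26 and 6.89 TPM (Pre), 6.14 and 5.56 TPM (MCE) and 6.62 and 5.74 TPM (Diff), and its shFTO values were 10.8 and 12.02, 8.26 and 8.35, and 10.2 and 10.4 TPM. All 6 shFTO libraries lay above all 6 shScram libraries, as they did for 6.14% of all genes. The shFTO mean was 250%, 142% and 167% of the shScram mean in the same order. The average difference was 0.80 (SE 0.19, adjusted p = 0.0098 with limma). By stage it was 1.29 (adjusted p = 0.023), 0.44 (adjusted p = 0.43) and 0.66 (adjusted p = 0.20). Without replicate 1 of shScram preadipocytes, the average was 0.59 (adjusted p = 9.9e-05) and the preadipocyte difference 0.65 (adjusted p = 0.0090). The preadipocyte call was lost without either shFTO preadipocyte library (adjusted p = 0.096 without replicate 1 and 0.10 without replicate 2).

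Irx5, which lies further from Fto, stood at 5.56 and 9.39 TPM with shScram and at 7.66 and 9.48 TPM with shFTO in preadipocytes, where the lines overlapped. The MCE libraries stood at 5.89 and 6.23 TPM (shScram) and 9.84 and 13.1 TPM (shFTO), and the differentiation libraries at 7.60 and 7.43 against 10.6 and 11.6 TPM. At both later stages the shFTO libraries lay above the shScram libraries. Groups of 2 libraries separate easily, and the share of all genes that do so at a stage was not counted. The same holds for the genes below. The average difference was 0.51 (SE 0.13, adjusted p = 0.014 with limma), and by stage it was 0.21 (adjusted p = 0.50), 0.81 (adjusted p = 0.041) and 0.50 (adjusted p = 0.16). The call at the MCE stage was lost when any 1 of 10 libraries was left out, with an adjusted p between 0.058 and 0.26, and it was kept without either shScram preadipocyte library.

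The transcripts of Irx3 and Irx5 are rich in G and C, at 62.5% and 65.4%, above 98.1% and 99.3% of the tested genes. The Rpgrip1l transcript holds 41.6%, above 12.2% of them, and Fto holds 48.1%. With the GC correction, which also takes out any difference between the lines that follows GC content, the Irx3 average was 0.28 (adjusted p = 0.0050) and that of Irx5 was -0.08 (adjusted p = 0.62), so the Irx5 call was lost and its sign turned. The corrected Irx3 differences by stage were 0.33 (Pre, adjusted p = 0.040), 0.20 (MCE, adjusted p = 0.20) and 0.29 (Diff, adjusted p = 0.065). The corrected Irx5 difference was -0.80 in preadipocytes (adjusted p = 0.023). It stayed above 0 at the later stages, at 0.52 (MCE, adjusted p = 0.11) and 0.03 (Diff, adjusted p = 0.93). In the MCE and differentiation libraries alone, without that correction, the averages were 0.55 for Irx3 (adjusted p = 0.00070) and 0.66 for Irx5 (adjusted p = 0.00065). Irx3 also overlaps its antisense gene Irx3os by 124 exonic bases, and since the sources do not say whether counting used strand, reads from this overlap cannot be told apart. Irx3os itself was listed at 0.0928 to 1.41 TPM.

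**Figure D3:**
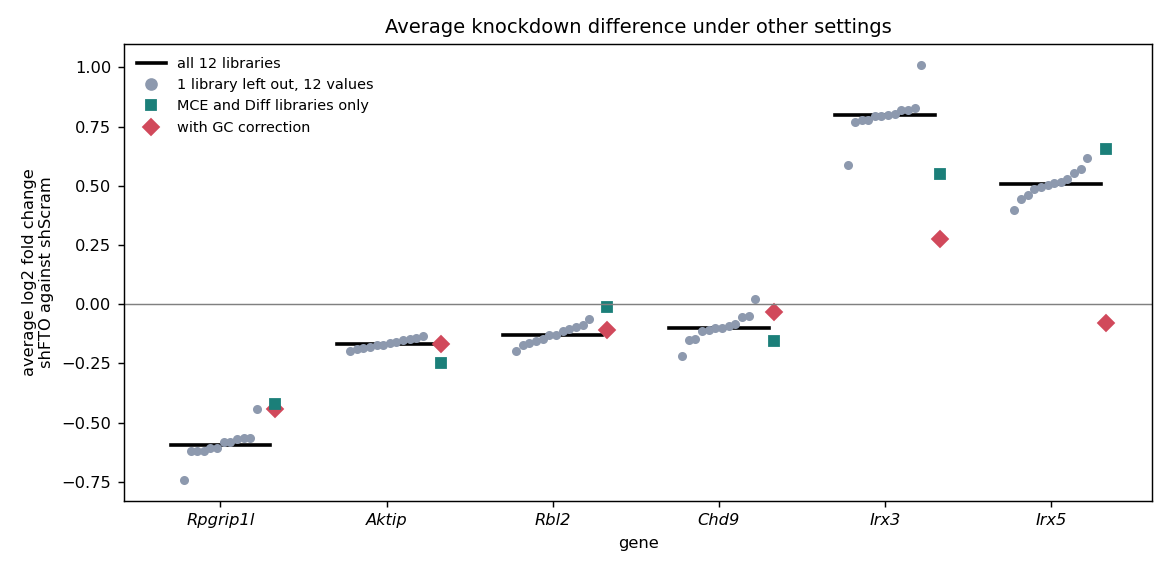
Average log2 fold change of TPM + 1, shFTO against shScram, for 6 neighbours under other settings. Black bars are the fit on 12 libraries, grey points the 12 fits with 1 library left out, squares the MCE and Diff libraries alone and diamonds the GC correction. Rpgrip1l stays below 0 and Irx3 above 0 in all of them, and Irx5 drops from 0.51 to -0.08 with the GC correction.

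Aktip codes for a component of the complex that links HOOK adaptors to FHIP proteins in vesicle transport. It held 29.8 to 34.2 TPM in shScram and 30.5 to 33.3 TPM in shFTO preadipocytes, 25.3 to 27.8 against 23.1 to 23.7 TPM at the MCE stage and 34.7 to 36.8 against 28.1 to 28.6 TPM at the differentiation stage. The shFTO libraries thus lay lower at both later stages and overlapped in preadipocytes, again without a share of all genes to compare with. The average difference was -0.17 (adjusted p = 0.080), with a 95% confidence interval that excludes 0 before adjustment, and it was -0.25 (adjusted p = 0.0056) in the MCE and differentiation libraries alone. At the differentiation stage it was -0.32 (adjusted p = 0.092). With the GC correction the average was called (-0.17, adjusted p = 0.025 with limma), and so was the differentiation value (-0.31, adjusted p = 0.029). Of all genes, 49.7% and 32.6% were called in these comparisons.

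Rbl2 codes for p130, a pocket protein that holds cell cycle genes silent in resting cells. It held 19.9 to 26.5 TPM in shScram and 16.3 to 18.9 TPM in shFTO preadipocytes, 20.5 to 24.8 against 25.7 TPM in both shFTO libraries at the MCE stage, and 29.7 to 33.2 against 26.3 to 28.1 TPM at the differentiation stage. The shFTO libraries were the lower ones at the first and last stages and the higher ones at the MCE stage. None of these differences was called (-0.37, 0.18 and -0.20, with adjusted p between 0.12 and 0.53), nor was the average of -0.13 (adjusted p = 0.29). Rbl2 and Aktip overlap tail to tail by 693 exonic bases on opposite strands, so their values may hold reads of each other.

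Chd9, a chromodomain helicase, held 18.4 to 30.9 TPM in shScram and 21.5 to 27.0 TPM in shFTO preadipocytes, and 21.8 to 26.6 against 22.9 to 24.4 TPM at the MCE stage. The differentiation libraries stood at 37.7 and 37.9 TPM (shScram) and 31.5 and 30.2 TPM (shFTO). The lines overlapped at the first 2 stages and not at the third. The average difference was -0.10 (adjusted p = 0.55).

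The order of levels in shScram cells, on the TPM scale, began with Fto at a mean of 61.7 TPM over 6 libraries. Aktip (25.3 to 36.8 TPM), Chd9 (18.4 to 37.9 TPM) and Rbl2 (19.9 to 33.2 TPM) followed and overlapped one another. Rpgrip1l, Irx5 and Irx3 came next with ranges that also overlapped, from 2.26 to 15.4 TPM across the 3 genes. In shFTO cells the mean of Fto was 6.32 TPM, within the range of Rpgrip1l in the same cells (4.93 to 6.46 TPM) and below every Irx3 and Irx5 value there.

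Stage by stage, few members were called within a line. All genes together shifted between stages, with a median log2 difference of -0.17 from Pre to MCE and 0.23 from MCE to Diff in shScram cells, and of -0.18 and 0.17 in shFTO cells, and the values of the members are to be read against these. From preadipocytes to MCE, no member was called in shScram cells by limma, and 0 of the 7 tested had an unadjusted p under 0.05, whereas 39.1% of all genes were called. In shFTO cells Aktip was lower by this test (-0.43, adjusted p = 0.025) and Rbl2 higher (0.52, adjusted p = 0.043), 2 of 7 tested against 28.7% of all genes. From MCE to the differentiation stage, Aktip was higher in shScram cells (0.42, adjusted p = 0.033), the only called member against 25.2% of all genes. Of the 7 tested, 4 had an unadjusted p under 0.05 by limma there, and all 7 values were positive. Chd9 (0.63, adjusted p = 0.069) and Rbl2 (0.46, adjusted p = 0.072) were not called there. In shFTO cells no member was called by limma from MCE to the differentiation stage, and 0 had an unadjusted p under 0.05, against 26.7% of all genes called.

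The Aktip calls between stages depended on single libraries, on scaling and on the GC correction, and that in shScram cells also on the replicate block. With the GC correction Aktip stood at 0.20 in shScram (adjusted p = 0.14 with limma) and -0.26 in shFTO cells (adjusted p = 0.051). The Rbl2 call depended on single libraries, on the filter (adjusted p = 0.069 without it) and on the replicate block (adjusted p = 0.064 with it). With median-ratio scaling, the Aktip differences were 0.15 in shScram cells (adjusted p = 0.45) and -0.20 in shFTO cells (adjusted p = 0.30). The Aktip call in shScram cells was lost without any 1 of the 8 MCE and differentiation libraries (adjusted p between 0.060 and 0.20), that in shFTO cells without any 1 of its 4 libraries (0.060 to 0.15), and the Rbl2 call without any 1 of 10 libraries (0.052 to 0.21).

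The change of the knockdown difference between stages was tested as an interaction. No member was called by limma between preadipocytes and MCE, where 5.11% of all genes were and Rbl2 alone had an unadjusted p under 0.05 (difference 0.55, adjusted p = 0.21). None was called between MCE and the differentiation stage, where 2.49% of all genes were and no member had an unadjusted p under 0.05. The knockdown difference of Rpgrip1l changed by 0.76 from preadipocytes to MCE (SE 0.36, adjusted p = 0.25) and that of Irx3 by -0.85 (SE 0.47, adjusted p = 0.30), so neither was called with all 12 libraries. Both values rested on single shScram preadipocyte libraries. Without replicate 1 they were 0.31 for Rpgrip1l and -0.21 for Irx3, and without replicate 2 they were 1.20 and -1.48. Each of these fits leaves 1 library in that group. The Rbl2 value was 0.35 without replicate 1 and 0.74 without replicate 2. For Irx5 the value was 0.60 (adjusted p = 0.29). It was 0.93 without replicate 1 of shScram preadipocytes and 0.27 without replicate 2. With the GC correction it was 1.32 (adjusted p = 0.027), where 10.3% of all genes were called.

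Genes that work with the members were listed by function. Of the 6 Iroquois genes, 4 were tested, and Irx4 and Irx6 were listed at 0. In the average over stages 3 were higher in shFTO cells, as were 24.5% of all genes, and none lower (2 higher with the GC correction, where Irx5 turned), with a median of 0.54 against 0.06 for all genes. These were Irx3, Irx5 and Irx2 (0.56, adjusted p = 0.0061), of which Irx2 lies on another chromosome. Irx1 stood at 0.46 (adjusted p = 0.065) in the average and was higher in preadipocytes (0.98, adjusted p = 0.045), a stage value given without the GC correction. The list median was 0.52 with 3 calls in the MCE and differentiation libraries alone. With the GC correction it was 0.11 with 2 calls, Irx2 at 0.26 (adjusted p = 0.010) and Irx3, while Irx1 stood at -0.03 (adjusted p = 0.67).

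The transition zone of the cilium, where the product of Rpgrip1l works, was represented by 23 tested genes. In the average 4 were lower in shFTO cells and 1 was higher, against 42.8% of all genes called, with a median of -0.10 against 0.06 for all genes. Among the lower ones were Rpgrip1l itself, B9d1 (-0.44, adjusted p = 0.019), which codes for a tectonic complex protein, and Cc2d2a (-0.41, adjusted p = 0.0092), and the higher one was Tctn3 (0.30, adjusted p = 0.037). In the MCE and differentiation libraries alone 5 were lower and 5 higher (54.5% of all genes called), and with the GC correction 8 were lower and 2 higher (49.7%). At the MCE stage itself limma called none of the 23, against 17.8% of all genes, and 5 had an unadjusted p under 0.05.

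Of 14 tested pocket protein and DREAM complex genes, the partners of p130, 5 were higher and 1 was lower, with a median of 0.09. Mybl2, a transcription factor that drives mitotic genes, had the highest value (1.11, adjusted p = 0.00025), followed by Lin37 (0.54, adjusted p = 0.0032) and Rbl1 (0.43, adjusted p = 0.0058), and E2f5 was lower (-0.50, adjusted p = 0.0081). Mybl2 was higher at each stage, by 0.73, 1.41 and 1.17. Of 8 genes of the complex of Aktip, Fam160b2 (0.71, adjusted p = 0.019) and Fam160b1 (0.41, adjusted p = 0.0021) were higher and Fam160a1 (-0.43, adjusted p = 0.022) and Hook3 (-0.42, adjusted p = 0.039) were lower. Of 8 tested CHD remodellers, Chd3 was higher (0.74, adjusted p = 0.00021) and Chd2 lower (-0.26, adjusted p = 0.045). The share called in these 3 lists lay near the 42.8% of all genes or below it.

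Genes of thermogenic adipocytes were listed because IRX3 and IRX5 are known for limiting that programme. Of 12 genes, 5 were tested, and Ucp1 did not exceed 0.0423 TPM in any library. In the average 2 of the 5 were higher and 0 lower, close to the 42.8% of all genes called (24.5% higher). The other tested genes, Cox7a1, Arid5b and Ppargc1a, were not called in it. Dio2, which activates thyroid hormone, was higher in shFTO cells at each stage, with mean levels of 0.0659 against 1.21 TPM (Pre), 1.30 against 16.2 TPM (MCE) and 0.622 against 24.2 TPM (Diff) (average 2.64, adjusted p = 2.9e-07). Ebf2 was also called (0.46, adjusted p = 0.023), at levels no higher than 1.51 TPM, and not in the MCE and differentiation libraries alone (0.39, adjusted p = 0.069). Ppargc1a, a coactivator of mitochondrial genes, was lower in preadipocytes (-0.92, adjusted p = 0.041) and stood at -0.43 in the average (adjusted p = 0.058). Its shScram preadipocyte libraries averaged 8.27 TPM and reached 11.2 TPM, in the group with the lowest correlation between libraries. Its preadipocyte value with the GC correction is not given here.

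**Figure D4:**
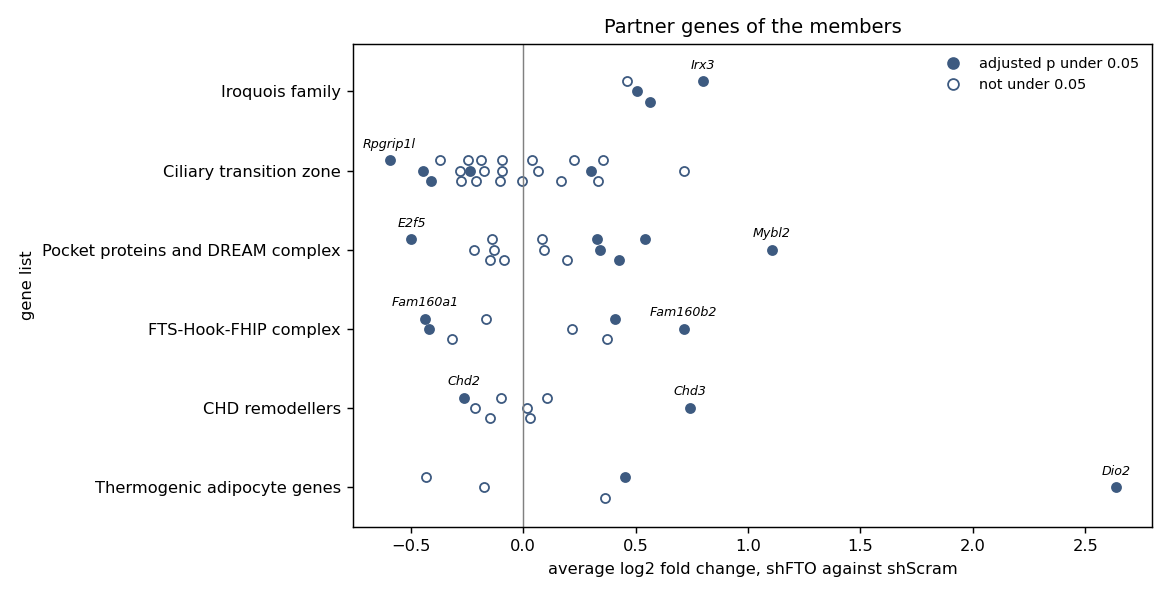
Average log2 fold change of TPM + 1, shFTO against shScram, for the tested genes of 6 lists, 1 point per gene, spread vertically for legibility and filled where the adjusted p was under 0.05. The 4 Iroquois genes lie above 0, where Irx1 and Irx5 do not stay with the GC correction, the transition zone genes lie on both sides, and Dio2 stands at 2.64.

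Beyond the members, the 10 next protein-coding genes on either side were taken as wider neighbours. Of these 20 genes 11 were tested, and in the average 4 were lower and 1 was higher in shFTO cells, against 42.8% of all genes called. With the GC correction 6 were lower and 2 higher (49.7% of all genes called), and in the MCE and differentiation libraries alone 5 were lower and 2 higher (54.5%). Adcy7, an adenylate cyclase gene at -3041 kb from the start of Fto, was higher (1.33, adjusted p = 1.3e-05). Cyld, a deubiquitinase gene at -2616 kb, was lower (-0.50, adjusted p = 0.0021), and so were Slc6a2 (-0.56, adjusted p = 0.0017), Ces1d (-0.68, adjusted p = 0.019) and Ces1f (-0.99, adjusted p = 0.0032), which lie 1647, 1884 and 1966 kb on the other side. The median was -0.27 against 0.06 for all genes. Ces1d codes for a lipid droplet hydrolase, and its mean at the differentiation stage was 4.30 TPM with shScram and 0.426 TPM with shFTO, where the adipocyte markers also differed. From MCE to the differentiation stage 8 of the 11 were called higher in shScram cells, Lpcat2 with the highest value (2.70, adjusted p = 7.3e-05). Of all genes 25.2% were called there in either direction. Among the 7 tested members 1 was called higher, and all 7 values were positive.

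**Figure D5:**
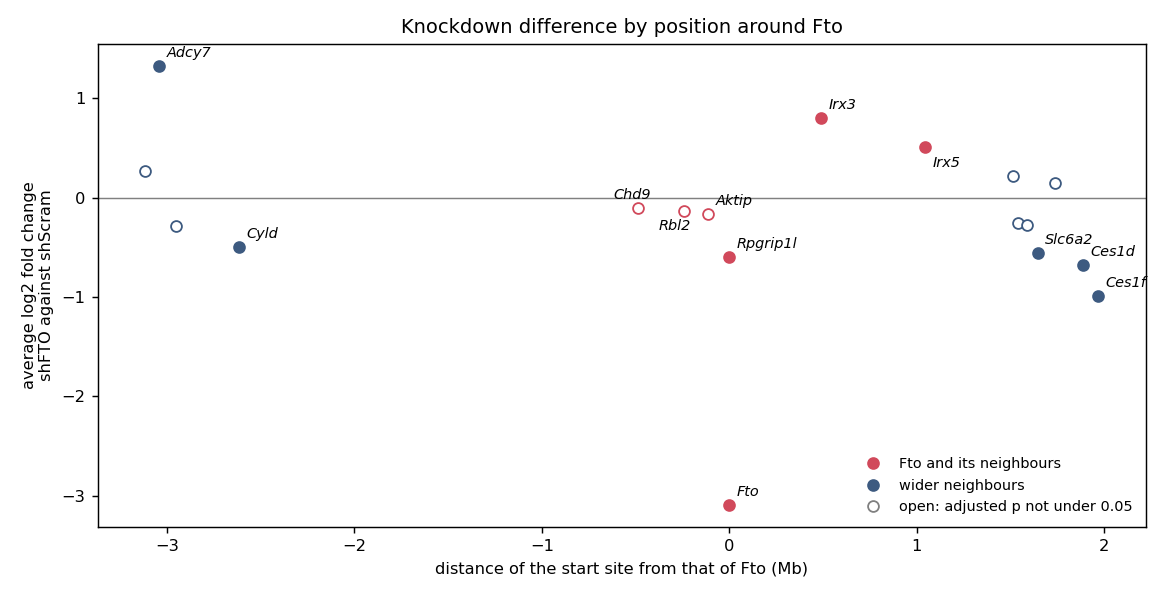
Average log2 fold change of TPM + 1, shFTO against shScram, by the distance of a gene's start site from that of Fto in Mb, for 7 members (red) and 11 wider neighbours (blue), filled where the adjusted p was under 0.05. Fto stands alone at -3.09. Rpgrip1l at the same position is at -0.59, the genes before it lie between -0.17 and -0.10, and genes on both sides at over 1 Mb lie above and below 0.

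The genes whose levels followed those of a member most closely over the 12 libraries were found among 10799 genes with a mean TPM of at least 5. For Fto these were Klhl4 (Pearson's r 0.989), Foxp2 (0.985) and Sis (0.985), of which Foxp2 averaged 46.2 TPM with shScram and 0.0635 TPM with shFTO. For Rpgrip1l they were Pcm1 (0.980), which codes for a centriolar satellite protein, Kiz (0.979), which codes for a centrosome protein, and mt-Nd5 (0.977). For Irx3 they were Dact3 (0.989), Serf2 (0.989) and Spata5l1 (0.987), and for Irx5 C1qtnf6 (0.937), Epb41l1 (0.923) and Cd14 (0.910). Aktip was closest to Zfp521 (0.965) and Rbl2 to Zfp866 (0.973). Among the members themselves, r was -0.95 between Rpgrip1l and Irx3, 0.73 between Fto and Rpgrip1l and -0.74 between Fto and Irx3. All of these values share the same 12 libraries and their base composition, and the separation of the lines and replicate 1 of shScram preadipocytes enter each of them.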

How the data were processed

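The 12 RNA-seq libraries of shScram and shFTO cells were grouped by their titles. Per the methods of the authors, reads were cleaned by Trim Galore (version 0.6.5) and mapped onto GRCm38 by HISAT2 (version 2.1.0), and the deposited TPM per gene came from StringTie (version 2.1.4) on Ensembl gene models. The depth per library is unknown, 20853 to 24018 genes were above 0 in a library, and strand use is not given in the sources used here. The authors called DEGs with DESeq2 on counts, which were not used here.

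Values were taken as log2(TPM + 1). Two-sided tests by limma 3.58.1 in R 4.3.3 covered the 15968 genes whose TPM reached 1 in no fewer than 2 libraries (group means, trended eBayes, 6 residual degrees of freedom), with Benjamini-Hochberg adjustment over all of them. In a simulation of shFTO against shScram at MCE over 15968 genes, the test recovered 180 of the 200 genes given a log2 change of 2 and made 10 false calls. Python 3.11.15 was used for positions (GENCODE M21, GRCm38, an earlier annotation release than that of the authors), GC content of the longest transcript and the search for shared bases in RefSeq windows of GRCm38.p6.

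The members and lists were chosen with earlier results of these data known. All 8 members were named in every library. From each list, up to 2 called genes with the lowest and 2 with the highest fold change were named, with further list genes chosen after their values were seen. For likeness, the 3 genes with the highest Pearson's r were taken for each member with a mean TPM of 5 or more. Some genes that these rules select are not reported here. The alternatives were a pseudocount of 0.1, no filter, a mean TPM of at least 5, median-ratio scaling, quantile normalization, only the libraries of a contrast, no trend, the replicate number as a block and each library left out. A GC correction (a lowess of each library's deviation from the gene mean against GC content) and the MCE and Diff libraries alone were added later.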

Additional observations from a re-analysis of the deposited data

How the results depend on the processing

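The average differences of Fto, Rpgrip1l and Irx3 kept their direction and their call in all 21 alternatives, and that of Irx5 in 20 of 21, with the GC correction as the exception (-0.081). Averages ranged from -3.26 to -3.07 for Fto, from -0.74 to -0.42 for Rpgrip1l, from 0.28 to 1.01 for Irx3 and from -0.081 to 0.66 for Irx5, with adjusted p up to 9.7e-07, 0.036, 0.031 and 0.62. Fitted on its own 4 libraries, Fto in preadipocytes had an adjusted p of 0.11. The cause was not tested where a count below changed.
The number of neighbours called was 2, 1 and 0 of the 6 tested by stage. Without a filter, where more genes were tested, it became 0 in preadipocytes and 0 at MCE. Calls there were 3289 and 2398 of 33021 genes. When a fit held just the libraries compared it became 0, 2 and 5, against 0%, 37.0% and 41.4% of all genes called. With the MCE and Diff libraries alone it became 2 and 5 at the later stages (41.2% and 45.9% of all genes called). With the GC correction it became 0 and 2 there (28.7% and 32.6%). The number of members called from MCE to Diff in shScram cells (1) became 2 without a filter (3953 of 33021 genes called). It became 0 with median-ratio scaling (3631 of 15968 genes called), with quantile normalization (2840) and with the GC correction (32.8% of all genes called). With just the libraries compared (40.4%) or those of the MCE and Diff stages (52.3%) it became 4. In shFTO cells it rose from 0 to 2 with either of these library sets (54.4% and 51.1% of all genes called) and to 1 with the GC correction (39.3%). From Pre to MCE it became 2 in shScram cells with the GC correction (44.0% of all genes called). In shFTO cells it became 1 between these stages without a filter (4384 of 33021 genes called). The interaction count from Pre to MCE became 1 with the GC correction (10.3%).
With the replicate number as a block, the count from MCE to Diff in shScram cells became 0 and that from Pre to MCE in shFTO cells 1, and no other call was changed. The numbers were not taken to pair the libraries in the main fit. The correlation of replicate 1 minus replicate 2 between groups was -0.29 to 0.17 over 15 pairs, with 2 over 0.1. It cannot show whether libraries of the same number were made together.
With 1 library left out, the neighbours called were 0 to 4 in preadipocytes, 0 to 2 at MCE, 0 to 4 at Diff and 3 to 6 in the average. The highest count in the average arose without replicate 2 of shScram preadipocytes. That fit left 1 library in that group, and far more of all genes were called in it as well. Every other fit of this kind also left 1 library in a group. The share of all genes called moved with the library left out at other stages too. The ranges here and those that follow are given without that share, so they do not show a change particular to the members. Members called were 0 to 3 from Pre to MCE and 0 to 4 from MCE to Diff in shScram cells, 0 to 3 and 0 to 2 in shFTO cells, and 0 to 3 and 0 to 0 for the interactions.
The calls among the values that changed sign were the Irx5 average above, which was called before and not after, and Irx5 in preadipocytes, which was called below 0 with the GC correction (-0.80) and not before. The other reversals in knockdown differences were Aktip in preadipocytes (GC correction 0.017) and Chd9 in preadipocytes (median-ratio -0.064, quantile -0.13). From Pre to MCE in shScram cells they were Rpgrip1l (GC 0.011), Irx3 (GC -0.0015) and Rbl2 (median-ratio 0.19, quantile 0.12, GC 0.27), and in shFTO cells Chd9 (0.20, 0.16 and 0.15 in that order). From MCE to Diff in shScram cells they were Rpgrip1l (quantile -0.039, GC -0.086), Irx3 (median-ratio -0.17, quantile -0.26, GC -0.080) and Irx5 (quantile -0.047), and in shFTO cells Fto (quantile -0.13) and Rbl2 (-0.13, -0.059 and -0.10). The Chd9 interaction from Pre to MCE was 0.0054 with quantile normalization.
With 1 library left out, signs turned within these ranges: in knockdown differences Aktip in preadipocytes -0.097 to 0.094, Irx5 in preadipocytes -0.12 to 0.54, Chd9 in preadipocytes -0.35 to 0.37, at MCE -0.17 to 0.11 and on average -0.22 to 0.020. From Pre to MCE in shScram cells they were Fto -0.023 to 0.12, Irx3 -0.21 to 1.07, Irx5 -0.56 to 0.11, Rbl2 -0.22 to 0.17 and Chd9 -0.35 to 0.37, and Chd9 in shFTO cells -0.18 to 0.13. From MCE to Diff they were Irx3 in shScram cells -0.022 to 0.15 and Irx5 in shFTO cells -0.22 to 0.16. The Chd9 interaction from Pre to MCE ranged from -0.40 to 0.32.
Over all genes, when a fit held just the libraries compared, calls went from 4510 to 0 (Pre), 2838 to 5913 (MCE) and 3391 to 6613 (Diff) for the knockdown, from 6236 to 504 and 4023 to 6454 between stages in shScram, from 4585 to 7999 and 4256 to 8684 in shFTO cells and from 816 to 239 and 397 to 2694 for the interactions. With the MCE and Diff libraries alone they were 6576 and 7323 for the knockdown, 8357 and 8159 between stages and 2694 for the interaction, and with the GC correction 4567 at MCE, 5192 at Diff and 1638 and 1244 for the interactions. A mean TPM of at least 5 gave 2260 at Diff, 2677 from MCE to Diff in shFTO cells and 226 for the later interaction, which was 202 with a pseudocount of 0.1, 606 without a filter and 257 with the block. Median-ratio scaling moved the share of stage calls that were lower from 68.9% to 46.9% and 20.7% to 48.6% in shScram and from 69.4% to 49.8% and 24.3% to 45.2% in shFTO cells.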
